A study of Mus musculus with 11 samples.

Results

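The chemokine CXCL12, its receptors and the first proteins that pass the receptor signal on were followed as 10 genes, listed by symbol with earlier results of these data known: Cxcl12, Cxcr4, Ackr3, Gnai2, Gnb1, Pik3cg, Pik3cd, Rac2, Jak3 and Vav1. Each matched 1 of the 53700 genes in the table of read counts, and 9 of the 10 passed the filter on low counts and were tested among 16639 genes. Ackr3 did not pass it. The libraries came from short-term haematopoietic stem cells (ST-HSC) sorted from the bone marrow of C57BL/6j mice. All hosts had received leukaemic marrow that carried Flt3-ITD and lacked TET2 (an acute myeloid leukaemia model), so no group is free of leukaemia. The hosts were CXCL12 WT (titled Cre_neg) or CXCL12 KO (titled Cre_pos), and received vehicle or cytarabine, doxorubicin and quizartinib. WT hosts gave 3 vehicle libraries (numbered 240, 253 and 265) and 3 treated libraries (252, 262 and 266). KO hosts gave 2 vehicle libraries (249 and 275) and 3 treated libraries (257, 263 and 276). The promoter that drives Cre, the doses, the times, the ages and whether the sorted cells were of host or leukaemic origin are not given in the sources used here. Separate animals are not named in the labels, and the p-values then measure spread between libraries that may be technical.

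CXCL12 is made in the marrow mainly by stromal and endothelial cells and holds stem cells in their niche. It binds CXCR4, a receptor coupled to inhibitory G proteins, and ACKR3, an atypical receptor that takes the ligand up. CXCR4 splits the G protein into a Gi alpha subunit (Gnai2 encodes one) and a beta-gamma pair (Gnb1 encodes a beta subunit), and beta-gamma activates the PI3K gamma catalytic subunit encoded by Pik3cg. Pik3cd encodes the delta catalytic subunit, Vav1 an exchange factor that loads small GTPases, Rac2 the Rac GTPase of blood cells, and Jak3 a Janus kinase best known downstream of cytokine receptors that use the common gamma chain. In bulk samples, fewer cells of a type and less RNA per cell cannot be told apart.

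Gene counts summed to between 8.13 and 31.1 M per library. The share of reads outside annotated genes ran from 5.98% to 30.4%, the latter in KO treated library 257. Libraries differed along 2 measures that touch several results. Relative expression across genes went against exon length in all 3 libraries of treated WT hosts and in KO treated 257 (Spearman's rank correlation across 16586 genes from -0.37 to -0.21), and with it in the other 7 (0.062 to 0.32). Markers of other marrow cells were abundant: the 12 granulocyte markers summed to between 10864 and 166827 CPM (reads per 1 M counted reads), and the 11 erythroid markers to between 63.9 and 1132 CPM in WT libraries and between 346 and 108819 CPM in KO libraries. The 12 stem cell markers summed to between 556 and 1797 CPM. Beside the label ST-HSC, the libraries thus also held transcripts of the granulocyte list, some of which (Mpo, Elane) progenitors make as well, and, most of all in treated KO hosts, of the erythroid list.

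No member passed an adjusted p of 0.05 in edgeR's quasi-likelihood test in any of the 7 comparisons fitted, and 0% of the 16639 genes did. DESeq2 called up to 3 members and limma voom up to 5, as given beside each comparison. The members' values below are therefore descriptions, with log2 fold changes, standard errors (SE) and adjusted p from that test. Values are CPM on TMM-scaled library sizes unless a per-length scale is named. The pattern that stood out was in 4 members, Jak3, Pik3cd, Pik3cg and Vav1, which were low in the same 4 libraries. How many of the 16639 genes were lowest in those 4 libraries was not counted. The pattern is therefore not shown to be particular to these members. Rac2 and Gnb1 lay the other way between treated hosts, and Cxcr4 itself did neither.

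The stretches before the annotated start sites of the receptor gene and of those 4 members show which DNA lies upstream of genes that shared a pattern. They are the 250 bases before the start, 5′ to 3′ on the gene's strand, from RefSeq on build GRCm38.p6, matched by symbol. The table held 8 of the 10 members, with 3 starts for Pik3cd and 2 for Pik3cg, of which the middle and the second are shown, a choice made with their motif matches known. Capitals mark matches on either strand to the GC box GGGCGG and to the TATA box TATAAA. They also mark GAGGAAGT, a core bound by the myeloid factor PU.1, and the ETS factor core CCGGAAGT.
Cxcr4, chr1:128592300-128592549, minus strand: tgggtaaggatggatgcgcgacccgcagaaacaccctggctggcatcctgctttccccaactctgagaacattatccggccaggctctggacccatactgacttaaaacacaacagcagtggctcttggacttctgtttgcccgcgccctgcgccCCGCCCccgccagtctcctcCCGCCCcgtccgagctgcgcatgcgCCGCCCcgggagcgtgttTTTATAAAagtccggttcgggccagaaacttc
Jak3, chr8:71676133-71676382, plus strand: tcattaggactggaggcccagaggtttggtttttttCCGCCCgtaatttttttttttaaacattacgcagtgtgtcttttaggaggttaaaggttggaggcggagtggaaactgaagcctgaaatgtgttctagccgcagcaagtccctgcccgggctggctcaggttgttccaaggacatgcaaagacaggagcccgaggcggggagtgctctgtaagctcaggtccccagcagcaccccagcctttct
Pik3cd, chr4:149676090-149676339, minus strand: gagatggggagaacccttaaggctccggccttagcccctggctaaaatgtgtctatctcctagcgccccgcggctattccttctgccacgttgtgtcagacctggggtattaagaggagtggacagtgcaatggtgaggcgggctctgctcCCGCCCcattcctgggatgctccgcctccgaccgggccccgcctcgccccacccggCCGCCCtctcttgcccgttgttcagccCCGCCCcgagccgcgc
Pik3cg, chr12:32208471-32208720, minus strand: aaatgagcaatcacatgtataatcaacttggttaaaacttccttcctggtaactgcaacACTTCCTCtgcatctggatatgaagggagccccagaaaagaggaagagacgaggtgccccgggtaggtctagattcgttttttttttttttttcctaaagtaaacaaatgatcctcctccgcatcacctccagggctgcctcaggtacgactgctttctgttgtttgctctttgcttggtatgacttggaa
Vav1, chr17:57278850-57279099, plus strand: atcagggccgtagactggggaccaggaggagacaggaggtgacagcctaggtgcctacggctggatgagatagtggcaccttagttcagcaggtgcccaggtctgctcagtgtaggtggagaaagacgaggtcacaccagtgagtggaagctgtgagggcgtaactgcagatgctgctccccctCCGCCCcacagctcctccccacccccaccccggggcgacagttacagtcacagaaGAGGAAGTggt
The Cxcr4 stretch held 3 GC boxes and 2 TATA matches, which overlap each other on opposite strands. Pik3cg and Vav1 each held 1 GAGGAAGT, which 2.44% of 32851 such stretches hold, and the stretch of the other Pik3cg start, which overlaps the one shown, held 0. GC boxes were in the Jak3 (1), Pik3cd (3) and Vav1 (1) stretches, and 32.7% of all stretches hold one. The Pik3cd starts not shown had 1 and 0. The shares were 12.4% for the TATA box and 2.88% for the ETS core. GC content was 61.2% for Cxcr4, 52.4% for Jak3, 66% for Pik3cd, 44% for Pik3cg and 60.8% for Vav1, against a median of 52.4%. No single motif searched was in all 4 of the stretches shown for the members that were low together. The E-box CANNTG was searched too and is not marked, since 66.2% of all stretches hold it. A match is a stretch of letters only, and binding was not measured.

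Cxcl12, the gene deleted in the KO hosts, was low in the sorted cells and did not follow the host genotype. Its values were 14.4, 0 and 0.123 CPM in WT vehicle libraries 240, 253 and 265, 0 and 5.36 in KO vehicle 249 and 275, 0.866, 1.59 and 0.826 in WT treated 252, 262 and 266, and 2.90, 1.20 and 4.63 in KO treated 257, 263 and 276. The highest value was in a WT library (223 counts) and the next in a KO library (131 counts). The 2 values of 0 allow up to 0.147 CPM of the unscaled total in 253 and 0.153 in 249 (3 counts, counting error only). All 3 KO treated libraries thus held Cxcl12 reads, and KO and WT overlapped in both treatment arms. Which exons were deleted, and in which cells, is not given in the sources used here, so these reads do not check the labels. KO minus WT was 1.41 ± 1.96 (SE) on the log2 scale in treated hosts (adjusted p = 0.873) and -0.86 ± 2.197 in vehicle hosts (adjusted p = 0.991). The latter turned on single libraries. It was 5.66 ± 2.40 without WT vehicle 240 (adjusted p = 0.369) and 0.24 ± 2.29 without KO vehicle 249 (adjusted p = 1). Without KO vehicle 275 it was -9.67, a fitted value against a lone KO library at 0 and no bound.

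Cells of the niche that make CXCL12 left few transcripts. The 14 stromal and endothelial markers summed to between 31.4 and 50.9 CPM in WT treated, 59.0 and 91.8 in WT vehicle, 69.0 and 156 in KO vehicle and 78.8 and 100.7 in KO treated libraries. Pecam1, an endothelial gene that blood cells express too, was the larger part of the sum in all libraries but 257 and 275. It stood at 41.4 to 81.4 CPM in WT vehicle, 43.9 and 58.6 in KO vehicle, 21.7 to 27.6 in WT treated and 25.8 to 65.7 in KO treated libraries. Outside 257 and 275 the sums thus rest mostly on this gene, but in those libraries other markers made up more. Of the 13 markers tested, 12 were positive for KO against WT in treated hosts (median log2 fold change 2.08), where 53.9% of all genes were. In vehicle hosts 11 were positive (median 3.48), where 48.7% of all genes were, and none was called in either. No marker lay apart between KO and WT vehicle libraries. KO vehicle 249 held 6 of the 14 markers and summed to 69.0 CPM, within the WT vehicle range, while 275 held 13 and summed to 156 CPM. The defining stromal genes Lepr, Kitl and Pdgfra were at 0 in libraries 240, 253 and 265 (WT vehicle), 249 (KO vehicle) and 266 (WT treated). Library 240, with the highest Cxcl12, held 6 of the 14 markers. Beside Pecam1 (41.9 CPM) these were the mural cell gene Pdgfrb (12.0), the collagen genes Col1a1 (2.65) and Col1a2 (0.775) and the endothelial genes Kdr (1.23) and Emcn (0.388). Col1a1, Col1a2 and Kdr were higher there than in 253 and 265, where Kdr was at 0, while the adipocyte-lineage gene Adipoq and the endothelial gene Cdh5 were at 0 in 240. In KO vehicle 275, Col1a2 was at 32.2, Kdr at 21.6 and Adipoq at 10.7 CPM beside the 5.36 CPM of Cxcl12. The part of such cells in the Cxcl12 values was not tested.

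Cxcr4 was measured well in every library and was lower in WT vehicle libraries 253 and 265 than in the other 9. It stood at 75.1, 20.1 and 18.7 CPM in WT vehicle 240, 253 and 265, at 63.1 and 105.5 in KO vehicle 249 and 275, at 53.5, 71.8 and 68.7 in WT treated 252, 262 and 266, and at 34.3, 39.9 and 82.3 in KO treated 257, 263 and 276. Group means were 37.95 ± 32.2 (SD, n = 3), 84.3 ± 30.0 (n = 2), 64.7 ± 9.82 (n = 3) and 52.2 ± 26.2 (n = 3). The groups overlapped in all 4 pairwise comparisons. KO minus WT was 1.15 ± 0.60 in vehicle hosts (adjusted p = 0.733) and -0.31 ± 0.54 in treated hosts (adjusted p = 0.906). The difference of these differences was -1.46 ± 0.81 (adjusted p = 0.770). Treated minus vehicle was 0.77 ± 0.55 in WT hosts (adjusted p = 0.471) and -0.69 ± 0.60 in KO hosts (adjusted p = 1). The Cxcr4 sign was not stable: with each library's trend with exon length removed, KO minus WT in treated hosts was 0.23 and treated minus vehicle in WT hosts -0.026, and without 253 and 265 the latter was -0.097.

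Ackr3 was almost absent at this depth. Its counts were 0 in WT vehicle 240, 253 and 265, WT treated 266 and KO treated 257, and between 1 and 7 in the other 6 libraries, with the 7 in WT treated 252. In WT vehicle libraries the 0 allows up to 0.147 to 0.369 CPM of the unscaled total (3 counts), and the highest value seen in any library was 0.217 CPM. KO vehicle libraries held 3 and 2 counts where WT vehicle libraries held 0, a difference not detectable at this depth.

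**Figure D1:**
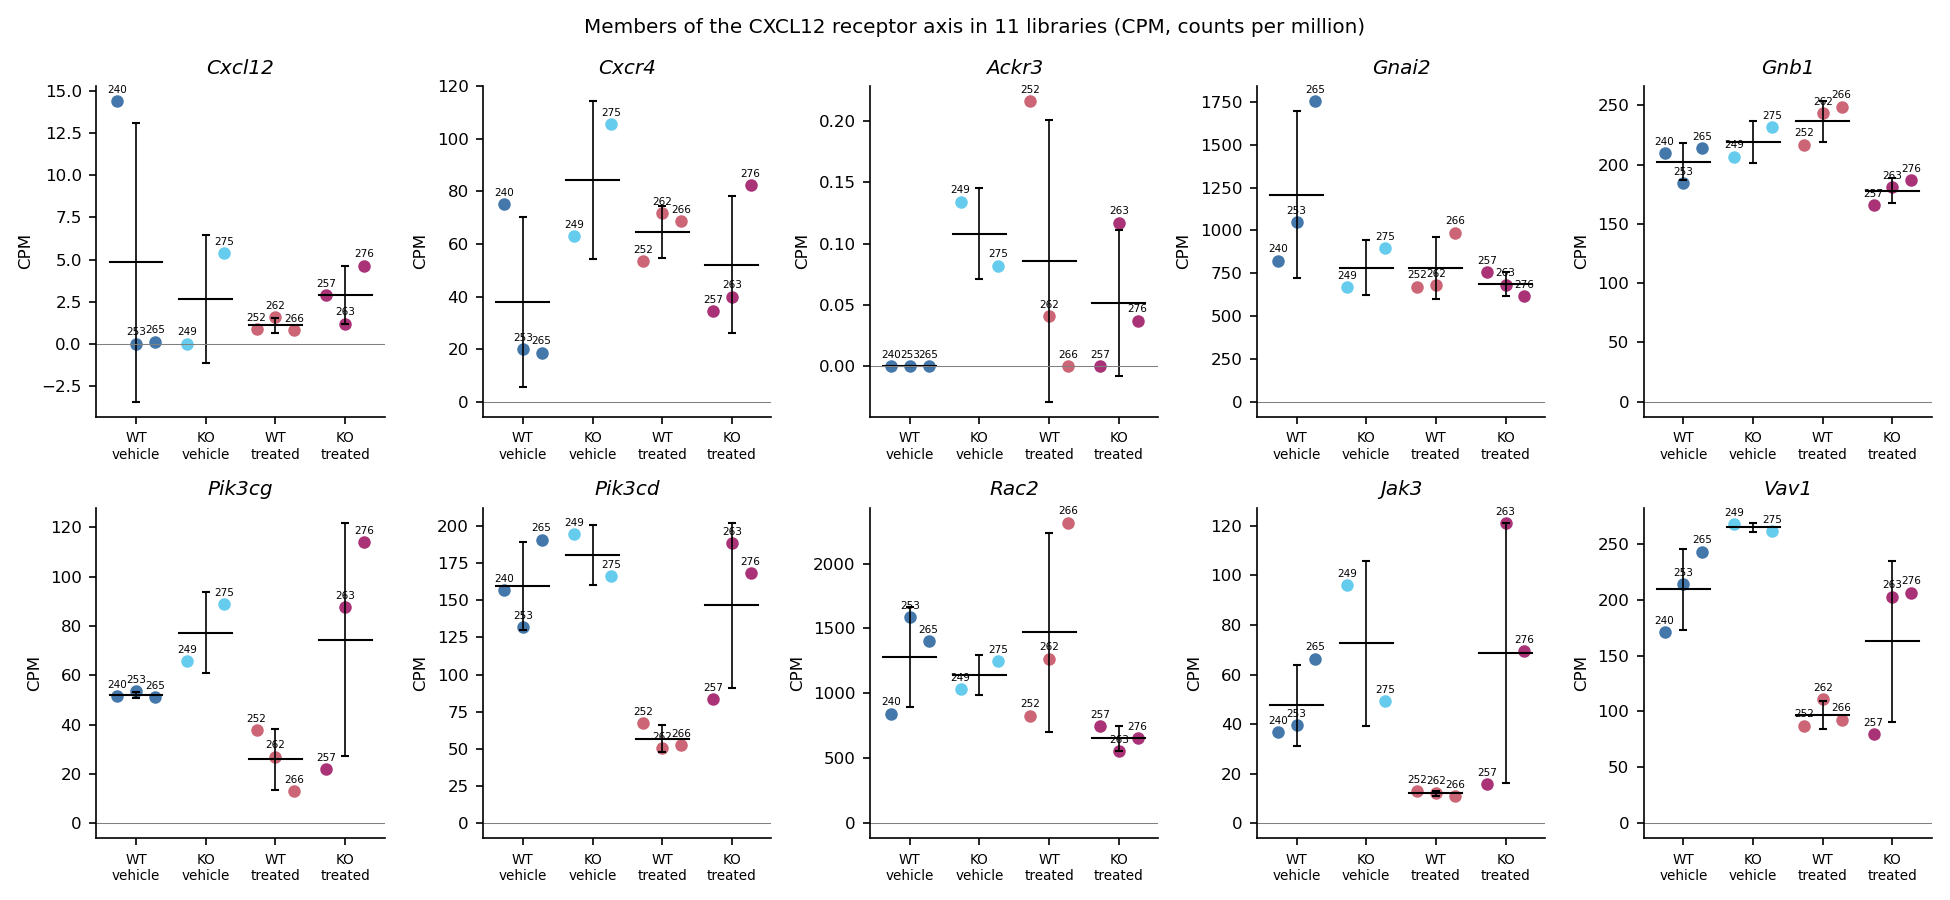
CPM (y axis) of each of the 10 members in the 4 groups (x axis), 1 point per library with its number, a bar at the group mean and whiskers of 1 SD; each panel has its own scale. Jak3 lies between 11.05 and 12.9 CPM in WT treated libraries and at 15.9 CPM in KO treated 257, below the other 7 libraries (36.8 to 121 CPM).

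The G protein subunits were abundant and varied least. Gnai2 was at 823, 1050 and 1755 CPM in WT vehicle 240, 253 and 265, at 668 and 897 in KO vehicle 249 and 275, at 671, 681 and 987 in WT treated 252, 262 and 266, and at 757, 684 and 618 in KO treated 257, 263 and 276. Library 265 was high, and the groups overlapped in the 4 pairwise comparisons. The 3 WT vehicle libraries all lay above the 3 KO treated libraries, a pair of groups that was not compared by a test. The Gnai2 fold changes lay between -0.63 and -0.18 on the log2 scale in the 4 pairwise comparisons, each with an SE of 0.34 to 0.39. Without 253 and 265 the vehicle and WT-host differences were 0.042 and 0.044.

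Gnb1 had the narrowest range, 166 to 249 CPM over the 11 libraries. It was at 209, 184 and 214 CPM in WT vehicle 240, 253 and 265, at 207 and 231 in KO vehicle 249 and 275, at 217, 243 and 249 in WT treated 252, 262 and 266, and at 166, 181 and 187 in KO treated 257, 263 and 276. KO treated libraries lay below all WT treated and all KO vehicle libraries, and WT treated lay above all WT vehicle libraries. KO minus WT in treated hosts was -0.41 ± 0.24 (adjusted p = 0.572), and treated minus vehicle in WT hosts 0.22 ± 0.24 (adjusted p = 0.655). The first was -0.64 ± 0.27 with the trend with exon length removed (adjusted p = 0.806), and -0.72 ± 0.26 with KO treated 257 left out as well (adjusted p = 0.243).

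Pik3cd was the most regular of the members that were low together. It was at 156, 132 and 191 CPM in WT vehicle 240, 253 and 265, at 194 and 166 in KO vehicle 249 and 275, at 67.2, 50.6 and 52.7 in WT treated 252, 262 and 266, and at 83.4, 188 and 168 in KO treated 257, 263 and 276. Every WT treated library was below every other library, and 257 came next. KO minus WT in treated hosts was 1.37 ± 0.34 (unadjusted p = 0.00166, adjusted p = 0.383), and treated minus vehicle in WT hosts was -1.49 ± 0.34 (unadjusted p = 0.000902, adjusted p = 0.172). The corresponding differences in vehicle and in KO hosts were 0.18 ± 0.37 and -0.30 ± 0.37, and the interaction was 1.19 ± 0.50 (unadjusted p = 0.0353, adjusted p = 0.767).

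Pik3cg was at 51.4, 53.6 and 51.1 CPM in WT vehicle 240, 253 and 265, at 65.7 and 88.9 in KO vehicle 249 and 275, at 37.8, 26.98 and 13.1 in WT treated 252, 262 and 266, and at 21.9, 87.5 and 114 in KO treated 257, 263 and 276. WT vehicle libraries were within 3 CPM of each other, KO vehicle lay above them, and WT treated below. KO treated split, with 257 among the WT treated values and 276 the highest of all. KO minus WT in treated hosts was 1.52 ± 0.54 (adjusted p = 0.432) and treated minus vehicle in WT hosts -1.004 ± 0.54 (adjusted p = 0.340).

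Vav1 was at 171, 214 and 243 CPM in WT vehicle 240, 253 and 265, at 268 and 261 in KO vehicle 249 and 275, at 87.4, 111 and 92.7 in WT treated 252, 262 and 266, and at 79.5, 203 and 206 in KO treated 257, 263 and 276. The KO vehicle libraries were the highest and close to each other (265 ± 4.36, SD, n = 2), and 257 was the lowest of all 11. Treated minus vehicle was -1.11 ± 0.36 in WT hosts (adjusted p = 0.182) and -0.70 ± 0.39 in KO hosts (adjusted p = 1). KO minus WT was 0.75 ± 0.35 in treated hosts (adjusted p = 0.482).

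Jak3 showed the widest contrast among the members with steady counts. It was at 36.8, 39.5 and 66.4 CPM in WT vehicle 240, 253 and 265, at 96.0 and 49.1 in KO vehicle 249 and 275, at 12.9, 12.3 and 11.05 in WT treated 252, 262 and 266, and at 15.9, 121 and 69.3 in KO treated 257, 263 and 276. The 3 WT treated libraries were nearly equal (12.1 ± 0.94, SD) and lay below all others, while KO treated spread from just above them to the highest value measured. KO minus WT in treated hosts was 2.51 ± 0.61 (unadjusted p = 0.00155, adjusted p = 0.383). Treated minus vehicle in WT hosts was -1.97 ± 0.60 (adjusted p = 0.177), and the interaction was 1.90 ± 0.88 (adjusted p = 0.767). Jak3 shares 404 exon bases with Insl3 on the same strand, and Insl3 itself was at no more than 0.556 CPM.

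Rac2 lay the other way between treated hosts and was among the most abundant members. It was at 845, 1587 and 1402 CPM in WT vehicle 240, 253 and 265, at 1033 and 1248 in KO vehicle 249 and 275, at 829, 1267 and 2316 in WT treated 252, 262 and 266, and at 749, 557 and 653 in KO treated 257, 263 and 276. All 3 KO treated libraries lay below the other 8. KO minus WT in treated hosts was -1.17 ± 0.41 (unadjusted p = 0.0146, adjusted p = 0.432), and -0.68 without WT treated 266. Rac2 is abundant in granulocytes, and its 2 highest libraries, 266 and 253, also had the highest granulocyte marker sums (166827 and 104308 CPM), while KO treated libraries had sums of 10864 to 35320 CPM. The part of granulocyte transcripts in the Rac2 values was not tested.

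The first comparison set KO against WT hosts under treatment. KO and WT libraries did not overlap for 4 of the 9 members tested: Jak3 and Pik3cd were higher in every KO library, and Rac2 and Gnb1 lower. Over all 16639 genes, 19.3% did not overlap, 9.71% higher and 9.56% lower in KO. At an unadjusted p under 0.05, Jak3, Pik3cd, Pik3cg and Rac2 passed, against 10.6% of all genes. The median log2 fold change of the 9 was 0.75, beside 0.10 over all genes, with 5 positive and 4 negative. DESeq2 called Jak3 (adjusted p = 0.00582) and Pik3cd (adjusted p = 0.0147) among 249 genes, and limma voom called Jak3, Pik3cd, Pik3cg, Vav1 and Rac2 among 4301 genes. The 11 erythroid markers also did not overlap, summing to 22443 to 108819 CPM in KO treated and 261 to 653 in WT treated libraries. Of the 12 granulocyte markers, 11 were negative, 8 of them at an unadjusted p under 0.05 (median -2.03). The 8 monocyte markers summed to 552 to 2369 CPM in KO treated and 3256 to 4362 in WT treated libraries. Of these 8, 4 were positive and 4 negative. Among the 8 B cell markers, 7 were negative (median -1.38). The part of such cells in the members' values was not tested.

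In vehicle hosts the KO and WT libraries did not overlap for Pik3cg and Vav1, both higher in KO, where 20.7% of all genes did not overlap and 13.2% were higher and 7.47% lower. No member passed an unadjusted p under 0.05, against 6.78% of all genes. The median of the members was 0.18, beside 0.00 over all genes. DESeq2 called 224 genes and limma voom 0, no member among them, and without 240 edgeR called 85 genes and no member. The Vav1 difference turned to -0.10 with the length trend removed, and both turned with the no-gene read share as a covariate (Vav1 -0.12, Pik3cg -0.39). The erythroid markers differed most: all 11 were positive for KO against WT, 9 of them at an unadjusted p under 0.05, with a median of 4.14. Their sums were 346 and 17607 CPM in KO 249 and 275 against 63.9 to 1132 in WT. The sum in 249 thus lay within the WT range, and 4 of the 11 markers did not overlap. All 7 megakaryocyte markers tested were positive (median 2.09), with sums of 48.9 and 628 CPM in KO 249 and 275 against 5.42 to 55.6 in WT. The 10 T and NK cell markers, of lineages in which Vav1 and Pik3cg are also expressed, summed to 852 to 889 CPM in KO and 558 to 748 in WT libraries. Of the 10, 5 and 8 were detected in KO 249 and 275 and 3 to 5 in WT libraries, and the cytotoxic granule gene Nkg7 alone was at 828 to 832 CPM in KO and 449 to 705 in WT. The part of these cells in the members' values was not tested.

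**Figure D2:**
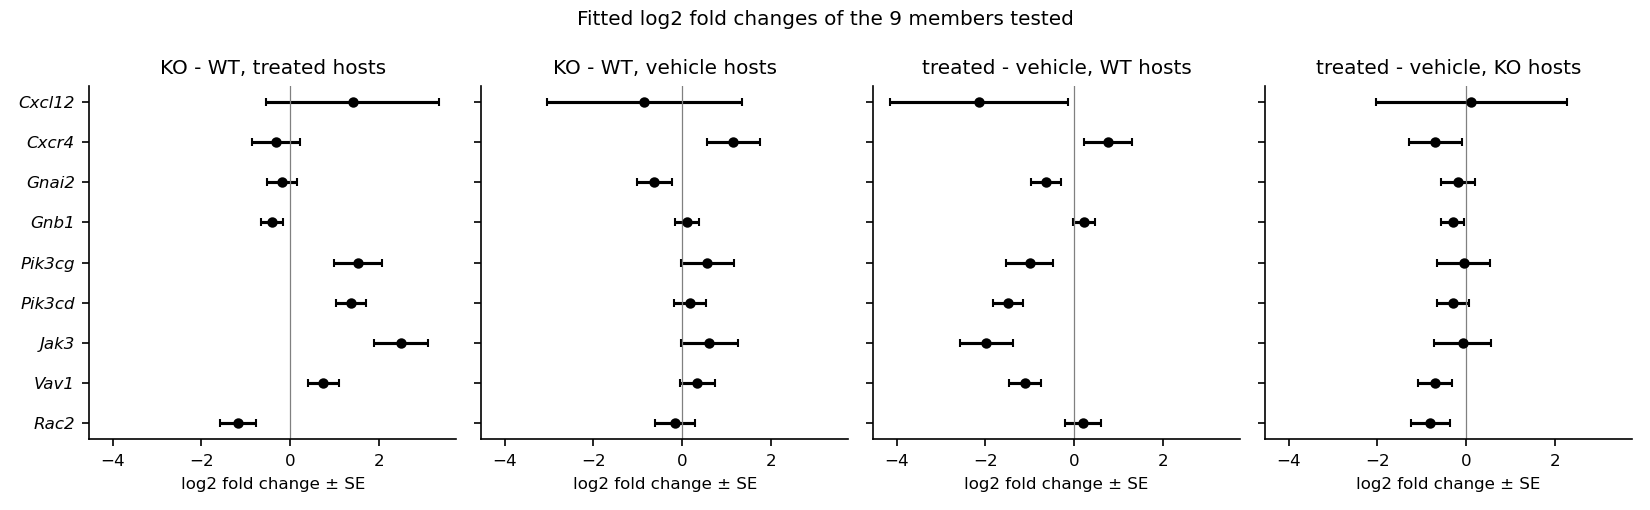
Fitted log2 fold change (x axis) with its SE for the 9 members tested (y axis), in 1 panel for each of the 4 pairwise comparisons. Jak3, Pik3cd and Pik3cg lie to the right of 0 for KO against WT in treated hosts (2.51, 1.37 and 1.52) and to the left for treated against vehicle in WT hosts (-1.97, -1.49 and -1.004).

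Treatment in WT hosts gave the largest number of members whose groups did not overlap. Jak3, Pik3cd, Pik3cg and Vav1 were lower in every treated library than in any vehicle library, and Gnb1 was higher. This was 5 of 9 members, where 27.7% of all genes did not overlap (17.5% higher, 10.1% lower). Jak3, Pik3cd and Vav1 passed an unadjusted p under 0.05, against 18.2% of all genes, and the members' median was -1.004, beside 0.09 over all genes. This comparison and the one of KO with WT under treatment share the 3 WT treated libraries, so their opposite signs are not independent of each other. DESeq2 called Pik3cd (adjusted p = 0.00238), Jak3 (0.0237) and Vav1 (0.0421) among 1106 genes, and limma voom called 0 genes. Without KO treated 257, which enters this comparison only through the filter, the scaling and the shared estimate of spread, edgeR called the same 3 members (adjusted p from 0.0107 to 0.0196) among 1012 genes. The T and NK cell markers summed to 1019 to 1769 CPM in treated and 558 to 748 CPM in vehicle libraries, of which Nkg7 was 972 to 1698 and 449 to 705 CPM. Of the 10, 6 to 10 were detected in treated and 3 to 5 in vehicle libraries. The 8 B cell markers summed to 75.2 to 152 CPM in treated and 52.3 to 60.5 in vehicle libraries. The part of these cells in the members' values was not tested.

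In KO hosts, Gnb1, Rac2 and Vav1 were lower in every treated library than in either vehicle library, where 22.4% of all genes did not overlap (12.3% higher, 10.1% lower). No member passed an unadjusted p under 0.05, against 3.68% of all genes. DESeq2 called 23 genes, limma voom 0, and neither called a member. The granulocyte markers summed to 10864 to 35320 CPM in treated and 40543 to 63990 in vehicle libraries. The erythroid markers summed to 22443 to 108819 CPM in treated and to 346 and 17607 in vehicle 249 and 275. The part of either was not tested. For Jak3 and Pik3cg the fitted difference was close to 0, -0.08 ± 0.64 and -0.05 ± 0.59, with SEs that leave room for more than a doubling in either direction.

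Averaged over both treatment arms, KO minus WT was 1.56 ± 0.43 for Jak3 (adjusted p = 0.297), 1.05 ± 0.40 for Pik3cg (adjusted p = 0.404) and 0.77 ± 0.25 for Pik3cd (adjusted p = 0.353). These 3 passed an unadjusted p under 0.05, against 10.9% of all genes. DESeq2 called Jak3 of them (adjusted p = 0.0425) among 366 genes. Without KO treated 257, edgeR called Jak3, Pik3cd, Vav1 and Pik3cg (adjusted p from 0.0220 to 0.0321) among 1000 genes. Averaged over both genotypes, treated minus vehicle was -0.90 ± 0.26 for Vav1 and -0.89 ± 0.25 for Pik3cd (adjusted p = 0.251 for each) and -1.03 ± 0.43 for Jak3 (adjusted p = 0.285), again 3 members, against 16% of all genes. DESeq2 called Pik3cd (adjusted p = 0.0360) and Vav1 (adjusted p = 0.0474) among 451 genes. For the interaction, Pik3cd passed an unadjusted p under 0.05, against 6.31% of all genes.

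The 4 libraries in which Jak3, Pik3cd, Pik3cg and Vav1 were low are the 4 in which longer genes were relatively low. Spearman's rank correlation across genes between relative expression and exon length was -0.30, -0.37 and -0.28 in WT treated 252, 262 and 266 and -0.21 in KO treated 257, against 0.28 and 0.32 in KO treated 263 and 276. Exon length was 8426 bases for Pik3cg, 6259 for Pik3cd, 5352 for Jak3 and 3688 for Vav1, where the median of the genes with a length was 3640 bases, and 1808 for Cxcr4. With the length trend removed from each library, KO minus WT in treated hosts was 2.02 for Jak3, 0.88 for Pik3cd, 0.94 for Pik3cg and 0.60 for Vav1. Each was nearer to 0 and of the same sign, and none passed (adjusted p from 0.756 to 0.872). Of the 12 stem cell markers, the receptor gene Kit alone had the same 4 lowest libraries, at 50.7, 37.7 and 20.5 CPM in WT treated 252, 262 and 266 and 20.5 in 257, against 73.9 to 243 in the other 7. The sum of the list was not low there, at 1150 to 1797 CPM in WT treated and 1319 in 257, against 556 to 1697 in WT vehicle. Gene by gene, 9 of the 12 were negative and 3 positive for treated against vehicle in WT hosts. Their median was -0.35, beside 0.09 over all genes. Of the same list, Ly6a (70.0 to 433 CPM against 1.11 to 61.5) and Cd48 (599.8 to 900.5 against 184 to 464) were higher in every WT treated than in any WT vehicle library. What the shared pattern rests on was not tested.

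**Figure D3:**
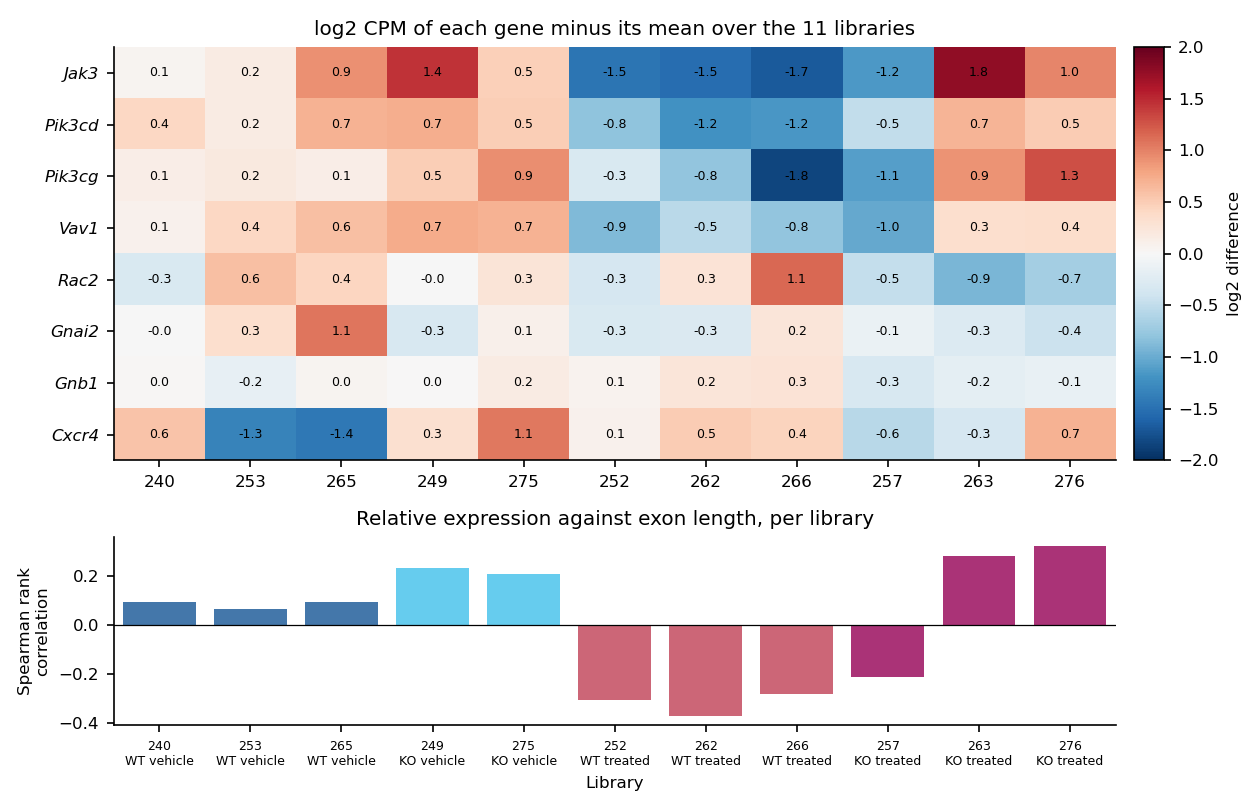
Upper panel, log2 CPM of 8 members minus each gene's mean over the 11 libraries (columns, by library number and group), in colour and as a number. Lower panel, Spearman's rank correlation across genes between relative expression and exon length in the same libraries. The 3 WT treated libraries and 257 are blue for Jak3, Pik3cd, Pik3cg and Vav1 and have a value below 0 (-0.37 to -0.21).

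Library 257 stood apart from the other KO treated libraries, and leaving it out changed whether members passed the test. Without it, 4 members passed for KO against WT in treated hosts: Jak3 at 2.97 ± 0.40 (adjusted p = 0.00886), Pik3cd at 1.65 ± 0.23 (adjusted p = 0.00886), Vav1 at 1.07 ± 0.21 (adjusted p = 0.0146) and Pik3cg at 1.95 ± 0.39 (adjusted p = 0.0159). In that fit 1513 genes passed, so the members were among many. Whether members passed did not turn on 257 alone. With 257 kept and no filter on low counts, edgeR called Jak3 in this comparison (adjusted p = 0.0117) among 43 genes. With 257 left out and the length trend removed as well, a setting chosen after seeing the data, none of the 4 passed: Jak3 was at 2.44 (adjusted p = 0.0565), Pik3cd at 1.04 (0.0978), Pik3cg at 1.31 (0.140) and Vav1 at 0.90 (0.212), and 27 genes passed over all. No label sets 257 apart, and it had the largest share of reads outside genes.

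**Figure D4:**
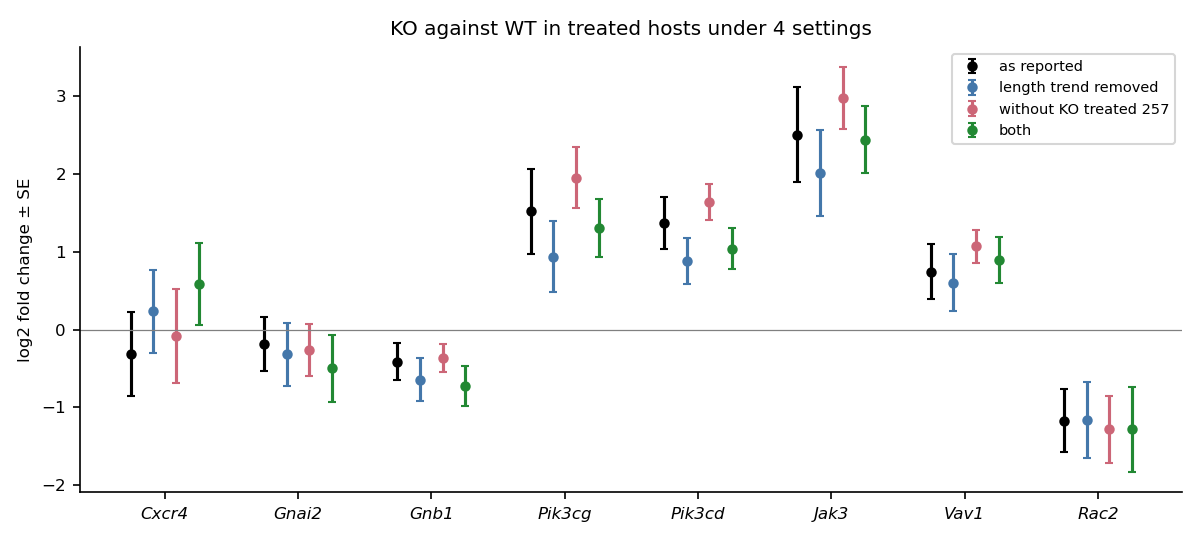
Log2 fold change of KO against WT in treated hosts (y axis) with its SE for 8 members (x axis) under 4 settings: as reported, with the length trend removed, without KO treated 257, and with both. Jak3 stays between 2.02 and 2.97 and Rac2 below 0, while Cxcr4 lies on either side of 0.

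Per kilobase of exon, the members spanned more than 4 orders of magnitude. The median over the 11 libraries was 333 CPM per kilobase for Rac2, 200 for Gnai2, 54.9 for Vav1, 49.1 for Gnb1, 34.9 for Cxcr4, 25.0 for Pik3cd, 7.38 for Jak3, 6.10 for Pik3cg, 0.147 for Cxcl12 and 0.0111 for Ackr3. Among neighbours in this order, the ranges over libraries of Gnai2 and Vav1 did not overlap, and all other neighbouring pairs did. By median alone, the Rac, G protein and Vav genes stood before the receptor, the kinase genes after it, and the ligand and the atypical receptor last. The receptor's range overlapped those of Vav1, Gnb1 and Pik3cd, so its place among them is not settled.

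Each signalling member was set against its close paralogs as a share of their summed per-length level, which compares genes within a library. Gnai2 made up 69.6% to 93.7% of the Gi alpha level, with Gnai3 nearly all of the rest. Gnb1 made up 44.7% to 63.1% of the beta subunits, with Gnb2 as the other large part. Rac2 made up 75.5% to 88.8% of the Rac level and Vav1 67.3% to 91.3% of the Vav level, with the highest Vav1 shares in KO vehicle 249 and 275 (91.3% and 90.2%). Among the catalytic PI3K subunits, Pik3cd held 51.7% to 71.7% and Pik3cg 11.7% to 26.4%, leaving the broadly expressed Pik3ca and Pik3cb a minority in every library.

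Jak3 made up 7.21% to 27.3% of the Janus kinase level, below Jak1 (45.9% to 71.2%) in every library. It was the smallest of the 4 in WT treated 252, 262 and 266 and KO vehicle 275, and came next after Jak1 in WT vehicle 265, KO vehicle 249 and KO treated 257 and 263. Its share was 7.21% to 9.57% in WT treated libraries, 12.4% to 20.3% in WT vehicle, 14.3% to 27.3% in KO vehicle and 11.8% to 25.7% in KO treated libraries. WT treated libraries thus lay below all others also when Jak3 was set against Jak1, Jak2 and Tyk2. No test was run on shares.

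**Figure D5:**
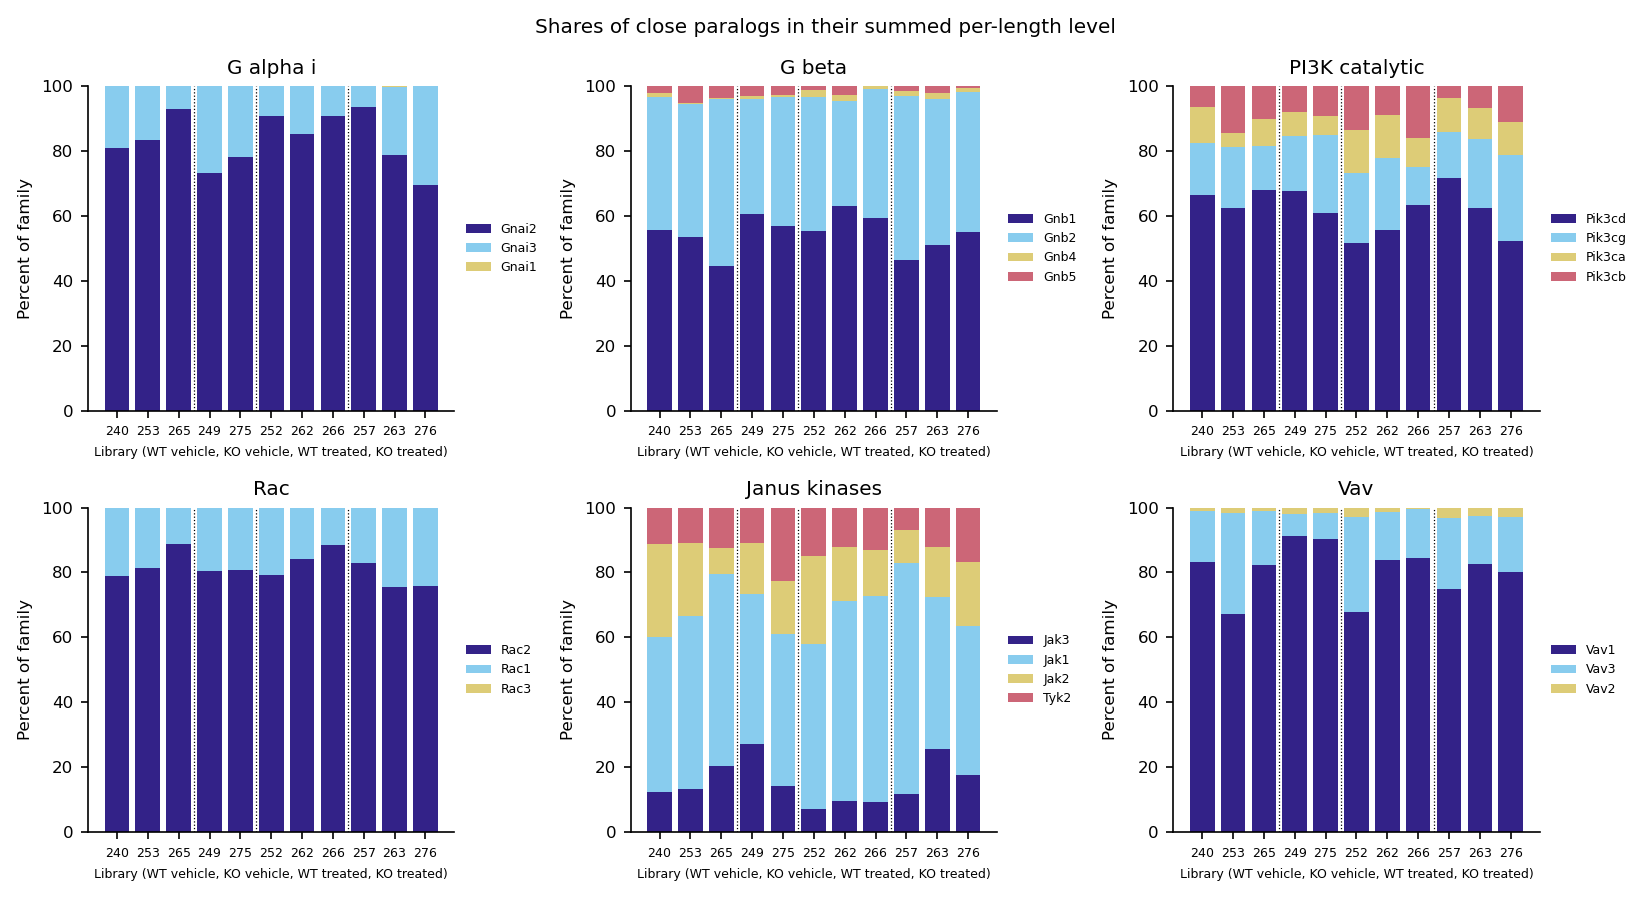
Stacked shares (y axis, percent of the summed CPM per kilobase of the family) of close paralogs in each of the 11 libraries (x axis, groups divided by dotted lines) for 6 families. The members are the lowest, dark blue segments (and Pik3cg the light blue one in the PI3K panel); the Jak3 segment is smallest in the 3 WT treated libraries, at 7.21% to 9.57%.

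By the root mean square difference of centred log2 CPM over the 11 libraries, the 5 genes most like Cxcr4 of 8128 compared were Dclre1c (0.33), Nup35 (0.33), Bet1 (0.36), Rad9a (0.38) and Tfb2m (0.38). The median over all compared genes was 1.01, and the SD of Cxcr4 itself was 0.78. None of the other members was among the 5.

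The rest of the pathway was described by 7 lists of genes, in which no gene passed the adjusted p in any comparison. For KO against WT in treated hosts, all 12 other PI3K subunits, lipid phosphatases and AKT-arm genes had positive log2 fold changes, as did 53.9% of all genes. Their median was 0.85, beside 0.10 over all genes. Inpp5d, which encodes a lipid phosphatase that acts on the product of PI3K, was at 1.24 ± 0.53 (adjusted p = 0.453). In treated against vehicle WT hosts 9 of the 12 were negative, with a median of -0.49, led by the kinase genes Akt1 (-1.23 ± 0.43, adjusted p = 0.190) and Akt2 (-0.90 ± 0.42, adjusted p = 0.282).

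The 6 other JAK and STAT genes were all positive for KO against WT in treated hosts (median 1.07, beside 0.10 over all genes). All 6 were negative for treated against vehicle in WT hosts (median -1.12, beside 0.09 over all genes). These 2 comparisons share the WT treated libraries. Stat5b, a transcription factor downstream of cytokine receptors and of FLT3-ITD, was at 1.58 ± 0.44 in the first (adjusted p = 0.383) and -1.67 ± 0.44 in the second (adjusted p = 0.173). Jak1 was at 1.02 ± 0.32 in the first (adjusted p = 0.405), and Stat5a at -2.06 ± 0.54 in the second (adjusted p = 0.172). In vehicle hosts 1 of the 6 was positive for KO against WT, with a median of -0.06.

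Of the 14 focal adhesion and calcium effectors, 8 were positive for KO against WT in treated hosts and 10 negative for treated against vehicle in WT hosts (median -0.86). Pxn, which encodes the adaptor paxillin, had the smallest p in both, at 1.45 ± 0.39 (adjusted p = 0.383) and -1.84 ± 0.40 (adjusted p = 0.172). The kinase gene Ptk2b followed at 0.91 ± 0.44 (adjusted p = 0.498) and -1.52 ± 0.45 (adjusted p = 0.177).

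The remaining lists were mixed. Of 15 other G protein subunits tested, 6 were positive and 9 negative for KO against WT in treated hosts (median -0.05), among them Gna12 at 1.28 ± 0.48 (adjusted p = 0.434). Of 14 genes of receptor shut-off and trafficking, 6 were positive and 8 negative (median -0.24), and the regulators of G protein signalling Rgs19 (-0.86 ± 0.29, adjusted p = 0.423) and Rgs2 (-1.04 ± 0.40, adjusted p = 0.434) had the smallest p. In treated against vehicle WT hosts the receptor kinase genes Grk6 (-1.35 ± 0.45, adjusted p = 0.187) and Grk2 (-0.90 ± 0.30, adjusted p = 0.188) did. Of 14 other small GTPases of the Rac and Cdc42 kind and their exchange factors and effectors, 7 were positive and 7 negative for KO against WT in treated hosts (median -0.03), led by Dock2 (1.26 ± 0.43, adjusted p = 0.428), a Rac exchange factor of blood cells, and Rhog (-1.03 ± 0.37, adjusted p = 0.433). Vav3, the paralog of Vav1, was at -1.49 ± 0.54 for KO against WT in vehicle hosts (adjusted p = 0.729) and -1.27 ± 0.47 for treated against vehicle in WT hosts (adjusted p = 0.206).

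Of the 6 other ligands and ligand-handling genes, 5 were negative for KO against WT in treated hosts (median -0.52). Cd74, which encodes the receptor partner of the CXCR4 ligand MIF, was at -1.92 ± 0.79 (adjusted p = 0.442). Mif was at 1.30 ± 0.54 for treated against vehicle in WT hosts (adjusted p = 0.241) and 0.53 ± 0.60 in KO hosts (adjusted p = 1). Cd74 is also abundant in antigen-presenting cells, and the 8 B cell markers summed to 75.2 to 152 CPM in WT treated libraries and 40.0 to 67.7 in KO treated libraries. The part of such cells in the Cd74 value was not tested.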

How the data were processed

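RNA-seq was done on 11 libraries of sorted ST-HSC in 4 groups. Per the labels' protocols, RNA was taken with the Qiagen RNeasy Plus Micro kit, amplified with SMARTer Ultra Low Input (v4) chemistry and made into libraries with Nextera XT, which keep no strand. The submitters' processing notes name bcl2fastq, Trim Galore 0.6.7, STAR 2.7.9a, HTSeq 0.6.7 and DESeq2 with build GRCm39, without roles. The table deposited by the authors holds raw read counts per Ensembl gene, not normalized, with 5 summary lines. These were left out: per library, reads outside genes were 5.98% to 30.4%, reads at more than 1 place 11.6% to 30.0%, and ambiguous reads 2.34% to 6.31% of all reads. The annotation release and strand setting are not given in the sources used here.

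Gene IDs were matched to a GENCODE reference of another mouse build, which gave symbols for 52093 of 53700 genes and exon lengths for 99.7% of genes tested. No coordinates are given for the counted genes. edgeR 4.0.16 (R 4.3.3) kept 16639 genes by filterByExpr over the 4 groups, which were scaled with TMM and fitted in 1 robust quasi-likelihood model of 4 groups with no covariate. The common biological coefficient of variation was 0.783. Benjamini-Hochberg adjustment ran over all genes tested in each of the comparisons, and a gene was called at an adjusted p under 0.05. The SE was computed as |log2 fold change| over the root of the F statistic. Alternatives were DESeq2 1.42.0, limma 3.58.1 (voom with quality weights), other scaling and filters, only the groups compared, the no-gene read share as a covariate, a length-trend offset (lowess span 0.3), leaving out libraries 253 and 265, and leaving out each library in turn. The scripts were tested on simulated data.

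The 10 members, the 7 pathway lists and the 8 marker lists were chosen with earlier results of these data known. The text names all members, at most 2 genes per pathway list and comparison (those with the smallest p, where none was called) and the 5 genes most like Cxcr4, among genes with a mean log2 CPM of at least 3. Kit, Ly6a, Cd48, Nkg7, Insl3 and the single niche and endothelial markers were named after their values were seen. Some genes that the rule picked are not reported here. Counts carry no molecular identifiers, so floors of 3 counts cover counting error only.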

Additional observations from a re-analysis of the deposited data

Results flagged for a closer look

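Gnb1, the G protein beta subunit gene, had treatment differences of opposite sign in the 2 host genotypes. It was 0.22 higher on the log2 scale in WT treated than in WT vehicle libraries and -0.30 in KO treated against KO vehicle libraries, with no overlap of the groups in either. Over all genes, 27.7% did not overlap in WT hosts (17.5% higher) and 22.4% in KO hosts (10.1% lower). Gnb1 was flagged because its groups lay apart in opposite directions, so that separation is no added evidence. The interaction was -0.52 ± 0.36 (adjusted p = 0.803, edgeR's quasi-likelihood test), so the difference between genotypes did not pass the test.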

How the results depend on the processing

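Alternatives gave 1352 values for the 63 member results: 1252 kept direction and side of the threshold, 35 passed it, and 65 changed sign. No paired analysis was possible because the groups share no replicate numbers. The cause of these changes was not tested. Comparisons are named below as treated or vehicle hosts (KO against WT), WT or KO hosts (treated against vehicle), the interaction, and the mean niche or treatment effect. Counts of calls were 0 as reported. Under DESeq2, members called were 2 (treated hosts), 1 (mean niche), 2 (mean treatment) and 3 (WT hosts), and genes called were 58 (the interaction), 249 (treated hosts), 224 (vehicle hosts), 366 (mean niche), 451 (mean treatment), 23 (KO hosts) and 1106 (WT hosts). With the length trend removed and 257 left out, genes called were 27 (treated hosts) and 116 (mean niche). Under limma voom, members called were 5 (treated hosts), and genes called were 4301 (treated hosts), 13 (mean niche) and 1 (mean treatment). With no filter, members called were 1 (treated hosts), 1 (mean niche) and 2 (WT hosts), and genes called were 43 (treated hosts), 11 (vehicle hosts), 83 (mean niche), 7 (mean treatment) and 215 (WT hosts). With a mean CPM of at least 10, genes called were 2 (mean niche). With the no-gene read share as a covariate, members called were 3 (mean treatment) and 4 (WT hosts), and genes called were 1517 (mean treatment) and 2100 (WT hosts). Leaving out each library in turn, genes called ran from 0 to 1513 (treated hosts), 85 (vehicle hosts), 1 (the interaction), 1000 (mean niche) and 1012 (WT hosts), and members called from 0 to 4 (treated hosts), 4 (mean niche) and 3 (WT hosts). The highest counts were without 257, except in vehicle hosts and for the interaction (without 240). With the length trend removed and 257 left out, signs turned for Cxcl12 -0.13 (mean niche), Cxcl12 -0.12, Jak3 0.25 and Pik3cg 0.13 (KO hosts), Cxcr4 0.59 (treated hosts), Cxcr4 -0.24 (mean treatment), Cxcr4 -0.029 and Rac2 -0.27 (WT hosts), Gnb1 -0.30, Pik3cd -0.22 and Vav1 -0.095 (vehicle hosts). Under limma voom, signs turned for Cxcl12 -0.74 (mean niche), Cxcl12 1.06 and Cxcr4 -0.086 (mean treatment), Jak3 0.49 and Pik3cg 0.16 (KO hosts), Rac2 0.030 (vehicle hosts). With the length trend removed, signs turned for Cxcl12 -0.027 (mean niche), Cxcr4 0.23 (treated hosts), Cxcr4 -0.42 (mean treatment), Cxcr4 -0.026 and Rac2 -0.28 (WT hosts), Gnb1 -0.30, Pik3cd -0.23 and Vav1 -0.10 (vehicle hosts). Without 253 and 265, signs turned for Cxcl12 -0.46 and Cxcr4 -0.029 (mean niche), Cxcr4 -0.41 and Rac2 0.053 (mean treatment), Cxcr4 -0.097 and Gnai2 0.044 (WT hosts), Gnai2 -0.26 and Vav1 -0.046 (the interaction), Gnai2 0.042 and Rac2 0.55 (vehicle hosts). With the no-gene read share as a covariate, signs turned for Cxcr4 -0.13 (mean treatment), Pik3cd -0.085, Pik3cg -0.39 and Vav1 -0.12 (vehicle hosts). With a mean CPM of at least 10, signs turned for Gnb1 0.0088 (mean treatment). With upper-quartile scaling, signs turned for Gnb1 0.11 (mean treatment). Leaving out 1 library, signs turned within Cxcl12 -9.67 to 5.66 and Rac2 -0.39 to 0.022 (vehicle hosts), Cxcl12 -4.26 to 11.06 (the interaction), Cxcl12 -4.14 to 3.53 (mean niche), Cxcl12 -1.46 to 3.50 and Cxcr4 -0.19 to 0.52 (mean treatment), Cxcl12 -0.88 to 9.03, Gnai2 -0.40 to 0.0050, Jak3 -0.77 to 0.43 and Pik3cg -0.57 to 0.38 (KO hosts), Cxcl12 -2.74 to 4.37 and Rac2 -0.29 to 0.49 (WT hosts), Gnai2 -0.28 to 0.021 (treated hosts).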
